A study of Homo sapiens with 30 samples.

Results

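The response of brain endothelial cells to tumour necrosis factor (TNF) was read from 6 of the 30 RNA sequencing libraries of the series: 3 libraries of cells given TNF for 12 h at 25 ng/mL, and 3 Control libraries of cells kept for the same 12 h in medium without serum. The cells were hCMEC/D3, an immortalised human line derived from brain microvessels and grown as a model of the blood-brain barrier, so every group rests on 1 line. The members are genes. Of 63138 genes with an Ensembl ID and counts in the table, 15908 passed a filter on low counts and were tested. A gene could pass through the 3 libraries of 1 group alone, so some genes scarce in Control entered through their level in TNF. The comparison asks which transcripts differed after exposure to the cytokine. The 3 libraries of cells given interleukin 1 beta (IL1b) for 12 h at 10 ng/mL were used to show where the TNF response differed from that to another cytokine. They and the C5a and Epinephrine libraries (15 libraries with Control and TNF) also entered the fit behind every test. Nothing in the labels says whether the 3 libraries of a group came from separate cultures, so p-values measure the spread between these libraries, which may be technical.

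TNF binds the receptors TNFR1 and TNFR2 on the cell surface. TNFR1 gathers the adaptors TRADD and TRAF2, the inhibitor-of-apoptosis proteins and the kinase RIPK1, which lead through the IKK complex to the breakdown of IkappaB proteins and the entry of NF-kappaB dimers into the nucleus. In endothelium NF-kappaB is known for switching on adhesion molecules and chemokines that bring leukocytes to the vessel wall, together with inhibitors that close the loop, while JNK, p38 and interferon regulatory factors act beside it.

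The 6 libraries held 17274481 to 22112326 counts, and 14340 to 15060 genes had at least 10 counts in a library. A count of 0 allows up to 3 counts. Levels are given as CPM, the counts of a gene scaled to a common library size with trimmed-mean (TMM) factors, differences as log2 fold changes of TNF over Control with their standard error (SE), and ± is the SD over n = 3 libraries. A gene is said to have risen or fallen where edgeR's quasi-likelihood test gave a Benjamini-Hochberg adjusted p under 0.05 over all 15908 genes. CPM is not per length, so levels are compared between libraries and not between genes. Endothelial markers summed to 1220 to 1260 CPM in Control and 1220 to 1270 CPM in TNF libraries. These near-equal sums hide opposite changes. Of the 12 markers 6 rose, such as CDH5 (log2 0.66), and 5 fell, such as CLDN5 (log2 -1.26). Among all genes tested 27.5% rose and 25.3% fell. Leukocyte markers summed to 3.35 to 3.95 CPM in Control libraries and 1.36 to 2.55 CPM in TNF libraries, with LYZ and TYROBP at 0 in all 6 libraries. The mural marker KCNJ8 and the glial markers AQP4, SLC1A2 and MOG were also at 0 in all 6. Astrocyte, neuron and oligodendrocyte markers together still summed to 95.7 to 102 CPM in Control and 91.1 to 101 CPM in TNF libraries. Of these 8 markers 3 were tested, and 1 fell. Summed pericyte and smooth muscle markers ran from 364 to 416 CPM in Control libraries and from 456 to 476 CPM in TNF libraries, where CSPG4 rose (log2 0.41) and PDGFRB (log2 -0.96) and RGS5 (log2 -0.54) fell. Fibroblast markers summed to 258 to 289 CPM in Control and 237 to 246 in TNF, and epithelial markers to 253 to 276 and 156 to 170 CPM. The part of these shifts in the results was not tested. In bulk RNA, fewer cells of a kind and less RNA per cell cannot be told apart.

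The response was broad. Of the 15908 genes, 8388 (52.7%) passed the test, 4369 (27.5%) of them higher and 4019 (25.3%) lower in TNF cells. Most changes were small: 1087 genes (6.83%) rose and 950 (5.97%) fell by more than 1 on the log2 scale, which is 2-fold. At the far end the response leaned upward, since 168 genes rose by more than 3 and 41 fell by more than 3, and 43 rose by more than 5 against 5 that fell by more than 5. For 9467 genes (59.5%) the range of the TNF libraries did not meet that of the Control libraries. The split of calls depends on the scaling. Dividing by library totals in place of the trimmed-mean factors (1.05 to 1.06 in Control, 0.86 to 0.879 in TNF) moved the median log2 fold change of all genes from -0.012 to -0.29 and gave 2283 higher and 7783 lower genes, so that 22.7% of calls were higher in place of 52.1%. All changes below are relative to the trimmed-mean scaling. With totals, 1019 of the 1087 genes remained higher and past the threshold, as did all 950 lower genes.

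**Figure D1:**
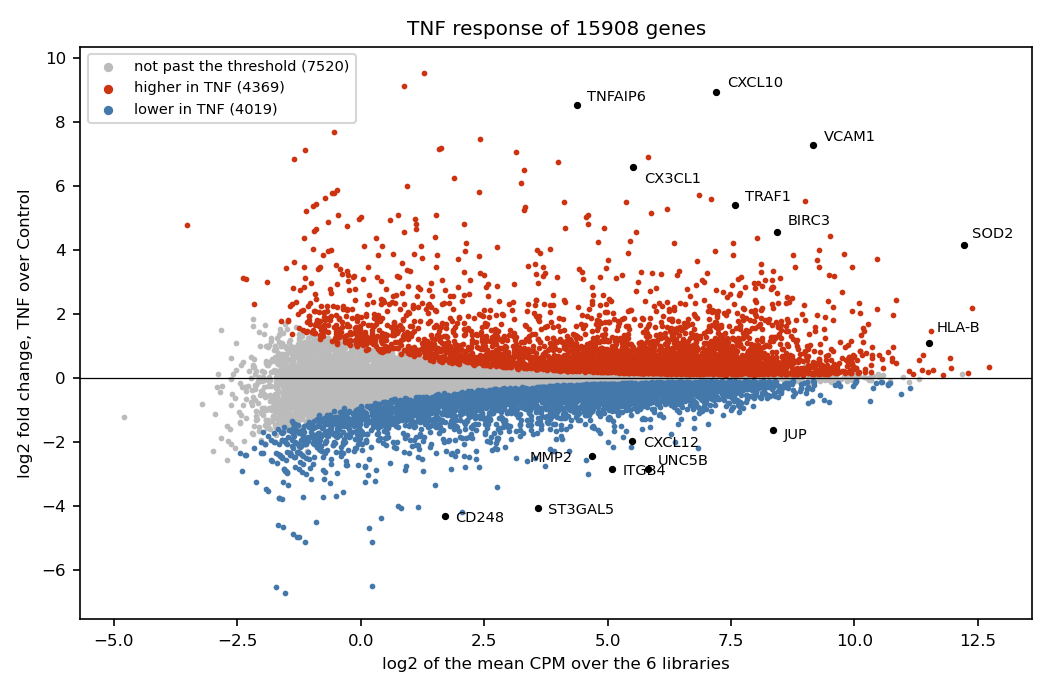
Log2 fold change of TNF over Control (y axis) against the log2 of the mean CPM over the 6 libraries (x axis) for the 15908 genes tested. Red points are the 4369 genes that rose, blue points the 4019 that fell, grey points the 7520 that did not pass the test, and black points are genes named in the text; the genes with the largest changes among well-measured ones, such as CXCL10 and VCAM1, lie above 0.

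Among TNF receptors and the proteins that act next to them, 25 of 34 genes rose and 2 fell, with a median log2 fold change of 0.59 against -0.012 over all genes tested, and with scaling by totals 22 rose and 7 fell (median 0.31). For this and every list below, the background is the share over all genes tested, 27.5% higher and 25.3% lower. With totals that background was 2283 higher and 7783 lower of 15908 genes. The 2 TNF receptors moved differently from each other. TNFRSF1A, which encodes TNFR1, was at 295, 277 and 282 CPM in the Control libraries and at 255, 257 and 271 CPM in the TNF libraries. The groups did not overlap, and the log2 fold change was -0.12 (SE 0.044, adjusted p = 0.0169), a call lost without TNF library 1 (adjusted p = 0.081), TNF library 2 (0.0655) or Control library 1 (0.117). TNFRSF1B, which encodes TNFR2, rose from 74.8 ± 0.882 to 143 ± 5.4 CPM (log2 0.94). The adaptors TRADD (33.4 ± 1.53 to 70.5 ± 2.07 CPM) and TRAF2 (28.5 ± 1.43 to 59.4 ± 3.3 CPM) rose by 1.08 and 1.06 on the log2 scale. The largest rise of the list was that of TRAF1, an adaptor that joins TRAF2 and the inhibitor-of-apoptosis proteins. TRAF1 was at 8.89, 9.15 and 8.21 CPM in Control and at 366, 376 and 379 CPM in TNF libraries. The 3 libraries of each group lay close together and far from the other group (log2 5.41, SE 0.071, adjusted p = 5.58e-36). BIRC3, the ubiquitin ligase cIAP2 that sits on this complex, rose from 27.8 ± 1.58 to 666 ± 34.9 CPM (log2 4.58). TNIP1, a ubiquitin-binding partner of the deubiquitinating protein A20, rose from 152 ± 7.34 to 1394 ± 46.6 CPM (log2 3.20).

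Of the NF-kappaB subunits and their inhibitors, 11 of 12 genes rose and none fell (median 1.29), and the same 11 to 0 split held with scaling by totals. Both precursors rose, NFKB1 from 68 ± 3.37 to 227 ± 15.8 CPM (log2 1.74) and NFKB2 from 78.4 ± 0.49 to 427 ± 9.86 CPM (log2 2.45). Among the transactivating subunits, RELA rose by 1.02 and RELB, the partner of the NFKB2 product, by 2.80 on the log2 scale. The inhibitors moved in the same direction as the subunits. NFKBIA, which encodes IkappaB alpha, was at 296, 279 and 329 CPM in Control and at 705, 868 and 766 CPM in TNF libraries (log2 1.37, SE 0.11). NFKBIE, which encodes IkappaB epsilon, rose from 21.4 ± 0.597 to 102 ± 3.46 CPM (log2 2.25). TNFAIP3, which encodes A20, was at 66.3, 53 and 71.8 CPM in Control and at 1216, 1603 and 1368 CPM in TNF libraries. Every TNF library stood far above every Control library, and TNF library 2 was the highest (log2 4.45, SE 0.21, adjusted p = 6.24e-09). TNFAIP3 overlaps the antisense gene WAKMAR2, and whether counting used the strand is not given in the sources used here.

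To show the DNA in front of genes that rose, RefSeq promoter windows (GRCh38.p14, from 250 bases before to 50 after the transcript start) were searched on both strands for the kappaB consensus, the site bound by NF-kappaB, for the interferon-stimulated response element as TTTCNNTTTC, and for the AP-1 consensus. Of 14462 tested genes with a symbol, 11239 had a window. The kappaB consensus was found in 6.65% of the 10396 windows of protein-coding genes tested and in 5.72% of all 27305 windows. It was found in 6 of the 10 windows of NF-kappaB subunits and inhibitors (BCL3, NFKB1, NFKBIA, NFKBIZ, REL and TNFAIP3) and in 4 of the 31 of TNF receptors and proximal signalling (BIRC3, MAP3K8, TNIP3 and TRAF3). In the 18 windows of MHC class I genes, 9 held the interferon element, against 3.65% of all windows, and 6 held the kappaB consensus. None of the 27 windows of AP-1, EGR and NR4A genes held a kappaB match. Shares for the genes that rose or fell most are not given, since fewer than 80% of them had a window. A match is a description of letters and not evidence of binding.

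The 6 sequences shown are those of the adhesion, chemokine, cytokine and NF-kappaB genes with the largest rises that held a kappaB match before any exon annotated in GENCODE 29. Each runs 5′ to 3′ on the strand of the gene toward its start, stops at the start or at the first annotated exon, and has the kappaB match in capitals:
VCAM1: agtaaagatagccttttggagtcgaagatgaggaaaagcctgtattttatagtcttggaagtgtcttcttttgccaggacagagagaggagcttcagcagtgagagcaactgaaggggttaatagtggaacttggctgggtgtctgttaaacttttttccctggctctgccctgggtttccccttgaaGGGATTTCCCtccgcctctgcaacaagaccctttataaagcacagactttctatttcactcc
SELE: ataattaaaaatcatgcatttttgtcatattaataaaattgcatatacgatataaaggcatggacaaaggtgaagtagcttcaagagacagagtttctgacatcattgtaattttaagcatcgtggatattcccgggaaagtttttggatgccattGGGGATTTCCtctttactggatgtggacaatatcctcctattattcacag
CXCL10: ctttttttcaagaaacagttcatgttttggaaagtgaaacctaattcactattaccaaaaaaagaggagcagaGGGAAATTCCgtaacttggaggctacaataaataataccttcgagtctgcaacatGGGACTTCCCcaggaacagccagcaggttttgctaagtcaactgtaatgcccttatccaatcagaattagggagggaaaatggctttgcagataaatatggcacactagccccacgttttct
CXCL1: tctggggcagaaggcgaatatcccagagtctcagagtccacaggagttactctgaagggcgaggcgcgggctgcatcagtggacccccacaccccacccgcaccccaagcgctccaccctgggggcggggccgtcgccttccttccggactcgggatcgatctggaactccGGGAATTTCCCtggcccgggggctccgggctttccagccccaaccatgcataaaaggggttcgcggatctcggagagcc
CCL20: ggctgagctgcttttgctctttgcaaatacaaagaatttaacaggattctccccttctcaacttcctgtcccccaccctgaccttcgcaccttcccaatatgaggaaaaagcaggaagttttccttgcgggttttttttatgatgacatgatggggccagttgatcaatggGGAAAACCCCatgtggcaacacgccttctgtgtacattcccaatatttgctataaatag
IL6: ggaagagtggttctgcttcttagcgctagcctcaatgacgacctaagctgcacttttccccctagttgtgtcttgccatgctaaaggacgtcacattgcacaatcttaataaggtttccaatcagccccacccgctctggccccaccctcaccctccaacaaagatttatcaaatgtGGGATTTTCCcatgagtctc
They lie at chr1:100719492-100719741 (plus strand) for VCAM1, chr1:169734124-169734329 (minus strand) for SELE, chr4:76023498-76023747 (minus strand) for CXCL10, chr4:73869143-73869392 (plus strand) for CXCL1, chr2:227813592-227813821 (plus strand) for CCL20 and chr7:22726950-22727146 (plus strand) for IL6. The VCAM1 match covers bases 62 to 53 before the start and reads as a kappaB match on both strands, and an interferon element follows it at bases 15 to 6. CXCL10 has 2 kappaB matches, at bases 177 to 168 and 122 to 113, and an interferon element on the other strand at bases 221 to 212. The single matches of SELE (bases 94 to 85), CCL20 (79 to 70), IL6 (73 to 64) and CXCL1 (79 to 69, overlapping matches on both strands) lie at similar distances.

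Of the leukocyte adhesion genes, 16 of 20 were tested. Of these 11 rose and 2 fell, and the median of 0.28 fell to 0.0048 with scaling by totals, where 6 rose and 3 fell: a few large rises stood beside small changes. VCAM1 (ENSG00000162692, chromosome 1, 100719742 to 100739045), the ligand of the integrin VLA-4, was at 7.22, 6.17 and 8.82 CPM in Control and at 1131, 1209 and 1095 CPM in TNF libraries. No other gene of the list moved as far (log2 7.28, SE 0.27, adjusted p = 6.86e-10). ICAM1, the ligand of the integrin LFA-1, was at 144, 137 and 134 CPM in Control and at 1240, 1369 and 1282 CPM in TNF (log2 3.23, SE 0.13), and it overlaps the antisense gene ICAM4-AS1. SELE, which encodes E-selectin on which leukocytes roll, was at 0.26, 0.105 and 0.165 CPM in Control and at 10.3, 10.2 and 10.8 CPM in TNF (log2 5.83, SE 0.46), and it overlaps FIRRM on the other strand. SELE had at most 5 counts in a Control library, so its fold is imprecise. SELP, which encodes P-selectin, was at 0 in all 6 libraries. CD47, a ligand of signal regulatory protein alpha, rose from 113 ± 3.49 to 387 ± 21.6 CPM (log2 1.77). TNFAIP6, a hyaluronan-binding protein outside the list, had counts in 1 of 3 Control libraries (0.312 CPM) and 37.9, 44.1 and 42.7 CPM in TNF (log2 8.53, SE 0.33). Its fold rests on the 6 counts of that Control library and is imprecise.

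**Figure D2:**
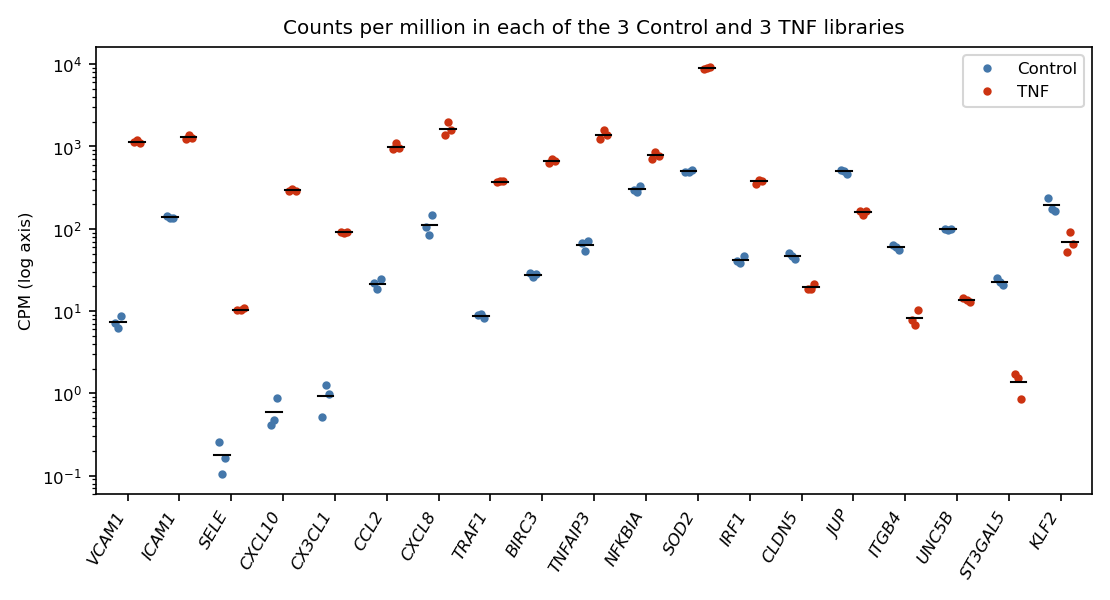
CPM on a log axis (y axis) in each of the 3 Control (blue) and 3 TNF (red) libraries for genes of the text (x axis), with a black bar at each mean. The 2 groups of 3 points do not overlap for any gene shown, among them VCAM1 (6.17 to 8.82 against 1095 to 1209 CPM) and UNC5B (98 to 99.8 against 13 to 14.5 CPM). Over all genes tested this holds for 59.5%, and some of the genes shown were named by a rule that asked for it.

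Chemokines had the highest median of the 26 lists, 3.91, with 15 of the 17 tested higher and 1 lower, and 13 and 2 with scaling by totals. CXCL10, a ligand of the T cell receptor CXCR3, was at 0.416, 0.471 and 0.882 CPM in Control and at 287, 308 and 285 CPM in TNF libraries (log2 8.96, SE 0.23, adjusted p = 3.03e-13). CXCL11, a second CXCR3 ligand, rose from 0.926 ± 0.295 to 111 ± 2.86 CPM (log2 6.91). Both overlap ART3 on the other strand. CX3CL1, the membrane-bound chemokine fractalkine, was at 0.52, 1.25 and 0.992 CPM in Control and at 91, 89.2 and 91.7 CPM in TNF libraries (log2 6.61, SE 0.16). For these ligands each TNF library was far above every Control library. The neutrophil attractants rose too, CXCL6 from 4.36 ± 0.271 to 228 ± 11.8 CPM (log2 5.71), CXCL8 from 112 ± 31.5 to 1644 ± 301 CPM (log2 3.88) and CXCL1 from 131 ± 12.4 to 655 ± 71.2 CPM (log2 2.33). Of the CC chemokines, CCL2, which draws monocytes, rose from 21.6 ± 3.07 to 996 ± 87.9 CPM (log2 5.53), CCL5 from 8.35 ± 1.04 to 154 ± 7.58 CPM (log2 4.21) and CCL20 from 1.57 ± 0.484 to 23.4 ± 2.92 CPM (log2 3.91). The exception was CXCL12, the CXCR4 ligand known for retaining lymphocytes around brain vessels. CXCL12 was at 74.8, 68.7 and 72.6 CPM in Control and at 19.3, 18 and 17.7 CPM in TNF libraries (log2 -1.98, SE 0.061, adjusted p = 4.03e-25), with no overlap.

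Of 38 cytokine and growth factor genes tested, 28 rose and 7 fell (median 1.65), against 26 and 7 with scaling by totals. CSF2, which encodes GM-CSF, was at 0.624, 0.471 and 0.331 CPM in Control and at 14.5, 26.5 and 17.6 CPM in TNF libraries (log2 5.34, SE 0.51). EBI3, a subunit of interleukins 27 and 35, rose from 1.36 ± 0.146 to 47.1 ± 2.51 CPM (log2 5.10). IL1B rose from 19 ± 4.23 to 350 ± 60.4 CPM (log2 4.21), IL6 from 42.5 ± 8.41 to 358 ± 72 CPM (log2 3.08) and CSF1, the macrophage growth factor, from 117 ± 4.91 to 676 ± 22.7 CPM (log2 2.53). INHBA, the activin A subunit, rose from 24.1 ± 2.09 to 347 ± 29.1 CPM (log2 3.85). For CXCL8, IL6, IL1B, CCL2, CSF2, TNFAIP3 and NFKBIA, TNF library 2 was the highest of the 3 TNF libraries.

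In the TNF superfamily, 27 of 35 genes were tested, and 15 rose and 8 fell, against 14 and 9 with totals. All genes tested gave 27.5% higher and 25.3% lower with the main scaling. LTB, the membrane anchor of lymphotoxin, rose from 0.282 ± 0.0753 to 31.7 ± 3.06 CPM (log2 6.77). The costimulatory receptor TNFRSF9 (4-1BB) had no count in 1 Control library and reached 18.4, 19.6 and 18.2 CPM in TNF libraries (log2 6.11, SE 0.31). In a Control library LTB had at most 7 counts and TNFRSF9 at most 8. TNFSF13B, the B cell survival factor BAFF, rose from 1.76 ± 0.549 to 80.9 ± 6.73 CPM (log2 5.51), and TNFSF18, the ligand of GITR, from 3.16 ± 0.812 to 113 ± 5.55 CPM (log2 5.17). The TNF gene itself did not pass the filter on low counts: its level was 0.0174 ± 0.0302 CPM in Control libraries and 0.508 ± 0.132 CPM in TNF libraries, with at most 10 counts in a library. Of 34 cell death regulators, 22 rose and 4 fell (median 0.65), against 17 and 9 with scaling by totals (median 0.38). They included genes of both outcomes, CFLAR, the caspase 8 inhibitor FLIP (log2 2.09), MLKL, the effector of necroptosis (log2 2.10), and BID, which carries the death signal to mitochondria (log2 1.60).

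Every gene tested of the interferon-stimulated list rose, 56 of 56 with a median of 2.17, and with scaling by totals 54 rose and none fell. These genes took 0.979% ± 0.00839 of all counts in Control and 3.15% ± 0.0132 in TNF libraries. IFNB1, which encodes interferon beta itself, is counted in this list. It was near the limit of detection, at 0.156, 0 and 0.22 CPM in Control and at 1.7, 1.63 and 0.793 CPM in TNF libraries (log2 3.40, SE 0.68, adjusted p = 5.89e-05). RSAD2, the antiviral protein viperin, was at 57.4, 53.8 and 57.1 CPM in Control and at 805, 812 and 817 CPM in TNF (log2 3.85, SE 0.17). IFIT2 rose from 73.4 ± 1.53 to 1170 ± 36.4 CPM (log2 4.0), and MX1, a GTPase that blocks viruses, from 578 ± 20.5 to 3120 ± 64.8 CPM (log2 2.43). Guanylate-binding proteins, GTPases that attack pathogens inside cells, gave the largest changes of the list: GBP5 rose from 0.124 ± 0.0794 to 17.6 ± 1.69 CPM (log2 7.08) and GBP4 from 5.52 ± 0.814 to 270 ± 2.79 CPM (log2 5.61). GBP5 had at most 4 counts in a Control library, so its fold is imprecise. RSAD2 overlaps CMPK2 and IFIT2 overlaps LIPA on the other strand. Of JAK, STAT and SOCS genes, 23 of 28 rose and 3 fell (median 0.78), against 21 and 4 with totals. The transcription factor IRF1, an activator of interferon-stimulated genes, rose from 41.7 ± 4.01 to 375 ± 22.6 CPM (log2 3.17). IL7R, the receptor chain for interleukin 7 and TSLP, rose from 3.85 ± 0.24 to 91.5 ± 3.15 CPM (log2 4.57).

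All 22 genes of MHC class I presentation rose (median 1.05), 21 of them also with scaling by totals. The heavy chain HLA-B went from 1842 ± 20.8 to 3936 ± 103 CPM (log2 1.10), its light chain B2M from 2025 ± 54.1 to 3329 ± 127 CPM (log2 0.72), the peptide transporter TAP1 from 170 ± 8.6 to 834 ± 25.3 CPM (log2 2.29) and the immunoproteasome subunit PSMB10 from 15.5 ± 0.947 to 54.9 ± 3.71 CPM (log2 1.83). Reads of the near-identical HLA heavy chains can be divided among them by counting, so single HLA values are uncertain. For MHC class II, 10 of 17 genes were tested, and 6 rose and 1 fell, against 6 and 3 with totals. CD74, the invariant chain, was at 1.35, 1.36 and 1.21 CPM in Control and at 36.4, 34.7 and 31.1 CPM in TNF libraries (log2 4.69, SE 0.19). CTSS, the protease that trims it, rose from 9.39 ± 0.344 to 93.1 ± 4.24 CPM (log2 3.31), and ICOSLG, a T cell costimulator in the same list, by 4.10 on the log2 scale.

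Of 20 complement genes tested, 7 rose and 4 fell, against 6 and 6 with scaling by totals, a share near that over all genes (52.7%). C3 rose from 95.4 ± 5.21 to 600 ± 18.9 CPM (log2 2.65), CFB, the protease of the alternative pathway, from 10 ± 1.72 to 55 ± 2.22 CPM (log2 2.46), and C3AR1, the receptor for C3a, from 1.37 ± 0.628 to 10.5 ± 0.949 CPM (log2 2.93). Of 24 coagulation and fibrinolysis genes, 13 rose and 9 fell, against 10 and 9 with totals, where all genes tested gave 27.5% higher and 25.3% lower with the main scaling. F3, tissue factor that starts clotting, was at 11.6, 10.6 and 12 CPM in Control and at 41.1, 44.5 and 49.2 CPM in TNF libraries (log2 1.98, SE 0.10), while THBD, the anticoagulant thrombomodulin, fell from 46.4 ± 0.305 to 33.6 ± 0.882 CPM (log2 -0.47). In the same list SERPINE2, an inhibitor of serine proteases, rose from 16.6 ± 2.72 to 209 ± 6.95 CPM (log2 3.65), and TFPI2, another protease inhibitor, from 77.6 ± 1.9 to 315 ± 15.2 CPM (log2 2.02).

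The AP-1, EGR, NR4A and MAP kinase feedback genes rose in 23 of 33 cases and fell in 1 (median 0.68), against 19 and 5 with totals (median 0.4), and some of them spread widely among replicates. FOSB was at 179, 77.4 and 95.8 CPM in Control and at 317, 649 and 332 CPM in TNF libraries (log2 1.88, SE 0.37, adjusted p = 0.00128). TNF library 2 was high here too, and the Control libraries differed by more than 2-fold. FOSL1, the stable AP-1 subunit FRA1, rose more evenly, from 51.7 ± 1.28 to 227 ± 9.02 CPM (log2 2.13), and DUSP10, a phosphatase of p38 and JNK, from 8.5 ± 0.766 to 51.1 ± 2.05 CPM (log2 2.59). FOSB overlaps ERCC1 on the other strand. Of 26 redox, prostanoid, kynurenine and biopterin enzymes, 15 rose and 6 fell, against 13 and 10 with totals. SOD2, the superoxide dismutase of mitochondria, was at 490, 489 and 517 CPM in Control and at 8711, 9017 and 9152 CPM in TNF libraries (log2 4.17, SE 0.054, adjusted p = 1.37e-35). It gained more of the library than any other gene, 0.725 percentage points of all counts. GCH1, the first enzyme of biopterin synthesis, rose from 27.7 ± 0.522 to 220 ± 5.03 CPM (log2 2.99), TYMP, thymidine phosphorylase, from 26 ± 0.608 to 216 ± 3.47 CPM (log2 3.05) and PTGS2, the inducible cyclooxygenase, from 0.993 ± 0.107 to 9.65 ± 0.761 CPM (log2 3.28).

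**Figure D3:**
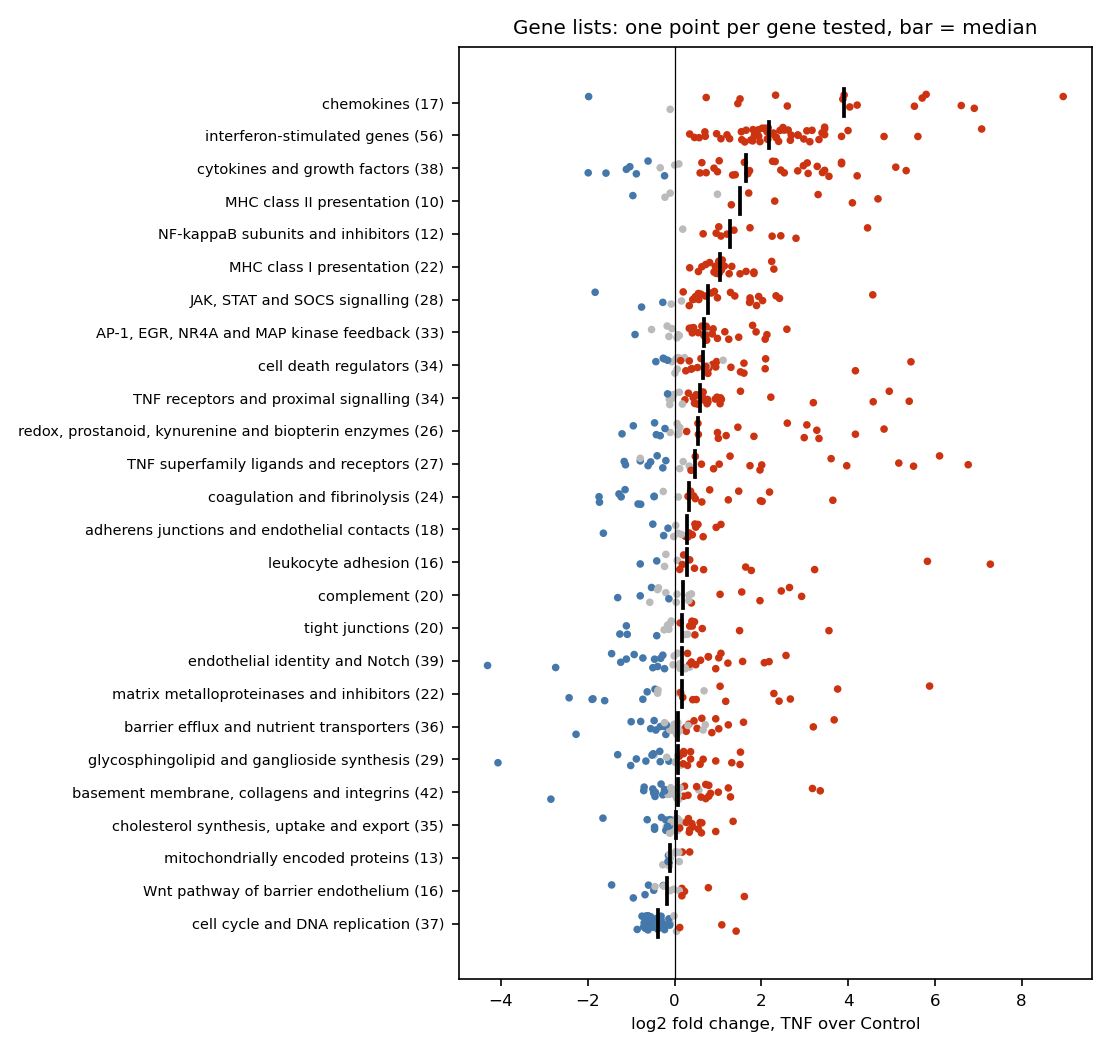
Log2 fold change of TNF over Control (x axis) for each gene tested in 26 gene lists (y axis, number tested in brackets, lists sorted by median). Red points rose, blue points fell, grey points did not pass the test, and the black bar is the median, from 3.91 for chemokines to -0.39 for cell cycle genes.

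Barrier genes moved in both directions, and which direction prevailed over a list depended on the scaling. Over all genes tested 27.5% rose and 25.3% fell, so movement in both directions was not particular to barrier genes. Of 20 tight junction genes tested, 9 rose and 4 fell, against 4 and 10 with scaling by totals. CLDN5, the claudin that seals brain endothelium, was at 50.2, 46.3 and 43.5 CPM in Control and at 18.7, 18.5 and 21.1 CPM in TNF libraries (log2 -1.26, SE 0.09, adjusted p = 1.56e-14). CLDN1, a claudin best known from epithelia, was at 44.2, 40.2 and 45 CPM in Control and at 504, 526 and 499 CPM in TNF (log2 3.56, SE 0.063), and CLDN11 rose from 191 ± 10.7 to 539 ± 7.07 CPM (log2 1.5). So within 1 family of seals the groups did not overlap and the directions were opposite, and scaling by totals turned none of the 3. ESAM, an adhesion molecule of endothelial junctions, fell from 23.9 ± 0.326 to 11.1 ± 1.04 CPM (log2 -1.11). Of 18 genes of adherens junctions and endothelial contacts, 10 rose and 4 fell, against 7 and 7 with totals. CDH5, VE-cadherin, rose from 264 ± 7.71 to 418 ± 12.8 CPM (log2 0.66), while JUP, the plakoglobin that links it to the cytoskeleton, was at 517, 509 and 464 CPM in Control and at 165, 149 and 164 CPM in TNF libraries (log2 -1.64, SE 0.051). GJA1, connexin 43, rose by 1.07 on the log2 scale.

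Of 36 efflux and nutrient transporters, 13 rose and 11 fell, against 10 and 18 with scaling by totals. The shares over all genes tested were 27.5% higher and 25.3% lower. SLC7A2, a carrier of arginine and lysine, rose from 87.6 ± 1.63 to 1123 ± 15 CPM (log2 3.68), and the amino acid carrier SLC38A5 from 31.1 ± 2.72 to 93.8 ± 3.19 CPM (log2 1.59), while SLC1A1, a glutamate carrier, fell from 5.5 ± 0.24 to 1.14 ± 0.235 CPM (log2 -2.27). The Wnt pathway, which maintains the brain endothelial state, had 5 of 16 tested genes higher and 6 lower, against 2 and 9 with totals. DKK1, a secreted Wnt inhibitor, rose from 47.6 ± 1.26 to 145 ± 8.68 CPM (log2 1.61). The Wnt coreceptors LRP5 (log2 -0.95) and ADGRA2, also known as GPR124 (log2 -1.45), fell, as did the transcription factor TCF7 (log2 -0.68). Not every relative moved alike: the coreceptor LRP6 rose (log2 0.17) and DKK3 fell (log2 -0.26), both by small amounts.

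Of 39 genes of endothelial identity and Notch signalling, 16 rose and 13 fell, against 12 and 17 with totals. All genes tested gave 27.5% higher and 25.3% lower. CD248, endosialin, was put on the list but is not specific to endothelium. CD248 was at 6.13, 7.37 and 5.07 CPM in Control and at 0.131, 0.421 and 0.34 CPM in TNF libraries (log2 -4.31, SE 0.30), the largest fall among genes above 5 CPM in the higher group. It had at most 8 counts in a TNF library. KLF2, a factor known for its response to flow, was at 237, 173 and 166 CPM in Control and at 51.9, 90.8 and 66.2 CPM in TNF (log2 -1.45, SE 0.20). NOS3, the endothelial nitric oxide synthase, was scarce, at 0.651 ± 0.205 and 0.191 ± 0.0814 CPM (log2 -1.73, adjusted p = 0.0344), and its call was lost without TNF library 1 (adjusted p = 0.104), TNF library 2 (0.103), Control library 1 (0.141) or Control library 2 (0.0544). ETS1, an endothelial transcription factor, rose from 118 ± 3.98 to 534 ± 5.65 CPM (log2 2.18), the Notch ligand JAG1 from 75.8 ± 0.674 to 225 ± 8.9 CPM (log2 1.57) and the Notch target HEY1 from 1.72 ± 0.183 to 10.2 ± 1.33 CPM (log2 2.57). UNC5B, the netrin receptor of endothelial cells, was at 98.3, 98 and 99.8 CPM in Control and at 14.5, 13.7 and 13 CPM in TNF libraries, with no overlap (log2 -2.84, SE 0.073). UNC5B overlaps the antisense gene UNC5B-AS1.

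Matrix genes moved in both directions, as did all genes tested (27.5% higher and 25.3% lower). Of 22 metalloproteinases and inhibitors, 11 rose and 7 fell, against 8 and 10 with totals. MMP2, a gelatinase, was at 44.1, 42 and 44.5 CPM in Control and at 6.8, 8.52 and 8.73 CPM in TNF libraries (log2 -2.43, SE 0.095). The inhibitor TIMP4 fell from 26.7 ± 1.33 to 7.15 ± 0.254 CPM (log2 -1.90), while the proteases ADAMTS1 (log2 2.41) and ADAM8 (log2 2.29) rose. Of 42 basement membrane, collagen and integrin genes, 15 rose and 13 fell, against 11 and 24 with totals. The laminin chain LAMB3, a part of laminin 332, was at 60.1, 57.8 and 56.3 CPM in Control and at 597, 590 and 595 CPM in TNF libraries (log2 3.36, SE 0.05). ITGB4, a subunit of the integrin that binds laminin 332, went the other way, at 64.2, 60.6 and 54.9 CPM in Control and 7.72, 6.79 and 10.4 CPM in TNF libraries (log2 -2.85, SE 0.10), with no overlap between groups. PPL, periplakin (log2 -3.02), a cytolinker that meets intermediate filaments, fell as well, as did PLEC, plectin, by a small amount (log2 -0.32). DSP, desmoplakin, another cytolinker, went the other way and rose (log2 2.94). The epithelial markers, of which 2 of 4 were tested and both fell, moved the same way as ITGB4, PPL and JUP and opposite to LAMB3, CLDN1 and DSP, while the defining markers EPCAM and CDH1 had at most 2 counts in a library. The part of KRT8 and KRT18, the 2 that fell, in these results was not tested. ITGA5, the fibronectin receptor chain, rose from 404 ± 5.7 to 951 ± 11.4 CPM (log2 1.24).

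Among 29 genes of glycosphingolipid and ganglioside synthesis, 13 rose and 10 fell, against 5 and 15 with totals. For this list and the cholesterol list below, the shares over all genes tested were 27.5% higher and 25.3% lower. ST3GAL5, which makes the ganglioside GM3 from lactosylceramide, was at 25.1, 22.3 and 20.8 CPM in Control and at 1.7, 1.53 and 0.85 CPM in TNF libraries (log2 -4.07, SE 0.18, adjusted p = 1.25e-20), and it overlaps ST3GAL5-AS1. B4GALT6, which makes lactosylceramide itself, fell from 10.6 ± 0.952 to 4.26 ± 0.397 CPM (log2 -1.31), while B3GNT5, which starts the lacto series from the same lipid, rose from 67.7 ± 1.32 to 169 ± 4.22 CPM (log2 1.32). Another sialyltransferase, ST6GALNAC1, which acts on O-linked sugars, fell by 2.84 on the log2 scale. Of 35 cholesterol genes, 13 rose and 10 fell, against 7 and 22 with totals. The exporter ABCA1 rose from 9.74 ± 0.989 to 18.8 ± 1.97 CPM (log2 0.95) and the reductase TM7SF2 fell from 53.5 ± 2.89 to 17 ± 1.64 CPM (log2 -1.65). FTL, the ferritin light chain, fell from 1582 ± 20.3 to 960 ± 26.3 CPM (log2 -0.72).

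Cell cycle and DNA replication genes moved together downward: 31 of 37 fell and 3 rose (median -0.39), against 35 and 2 with scaling by totals. TOP2A, the topoisomerase of mitosis, was at 878, 912 and 889 CPM in Control and at 515, 569 and 510 CPM in TNF libraries (log2 -0.75, SE 0.044), and CCNA2, cyclin A2, fell from 186 ± 9.59 to 103 ± 5.64 CPM (log2 -0.86). Among the genes that rose were the inhibitor CDKN2B (30.4 ± 1.2 to 81.2 ± 5.36 CPM, log2 1.42) and cyclin D1, CCND1 (79.7 ± 6.49 to 170 ± 6.58 CPM, log2 1.09). CDKN2B overlaps CDKN2B-AS1, CCNA2 overlaps EXOSC9 and CCND1 overlaps LTO1. Of 13 mitochondrially encoded protein genes, 2 rose and 3 fell, against 0 and 10 with totals. With the main scaling this is a smaller share than the 52.7% over all genes tested. MT-ND4 is one whose direction turned with the scaling, at log2 0.18 (adjusted p = 0.0384) and -0.10 with totals (adjusted p = 0.235). Its call was also lost without TNF library 2 (adjusted p = 0.106), TNF library 3 (0.103), Control library 1 (0.0538) or Control library 3 (0.145), and in a fit of the TNF and Control libraries alone (0.212).

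The libraries themselves changed in make-up. The 1087 genes that rose by more than 1 held 5.25% ± 0.0743 of counts in Control and 15.9% ± 0.164 in TNF libraries, a description only, since these genes were chosen for rising. SOD2 went from 0.0524% to 0.777% of all counts. Other large gains were those of THBS1, the matrix protein thrombospondin 1 (0.219 percentage points), MX1 (0.21), PTX3, the pattern recognition molecule pentraxin 3 (0.205), RNF213, a large ubiquitin ligase (0.168), and HLA-B (0.148). The largest losses were smaller, IGFBP4 from 0.242% to 0.141% and EFEMP1, fibulin 3, from 0.26% to 0.174%. Of the lists, MHC class I genes went from 1.08% ± 0.01 to 1.71% ± 0.0285 of counts and chemokines from 0.0509% ± 0.00722 to 0.389% ± 0.0442, while 86 cytosolic ribosomal protein genes went from 3.28% ± 0.0409 to 2.99% ± 0.0169. The shares of these 3 groups each gave a two-sided exact permutation p of 0.1, the smallest that 3 against 3 libraries can give, with no overlap between groups.

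**Figure D4:**
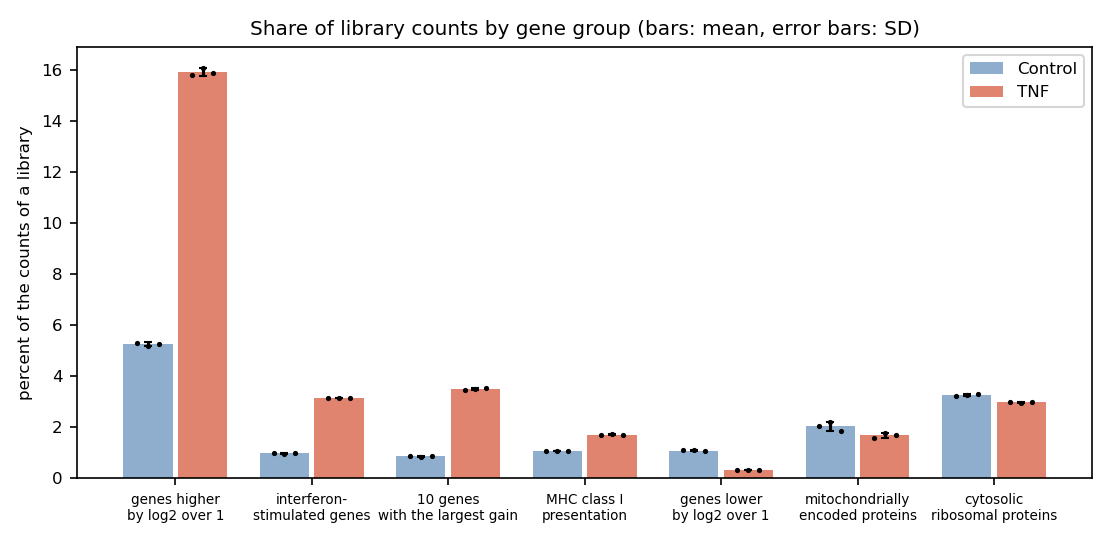
Percent of the counts of a library (y axis, from 0) held by 7 groups of genes (x axis) in Control (blue) and TNF (red) libraries. Bars are means, error bars the SD over 3 libraries and dots the libraries; genes that rose by more than 1 went from 5.25% to 15.9% and interferon-stimulated genes from 0.979% to 3.15%.

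Among genes with at least 5 CPM in TNF, 3 rose from at most 3 counts in every Control library, so their folds are lower bounds set against 3 counts per library. Such genes could pass the filter on low counts only through libraries other than Control. MRGPRX3, a Mas-related G protein-coupled receptor, was at least 66.7-fold higher (9.94, 11.8 and 10.1 CPM in TNF libraries). TRPA1, an irritant-gated cation channel, was at least 38.6-fold higher (6.74, 6.1 and 5.61 CPM), and OR2I1P, an olfactory receptor locus in the MHC, at least 37.6-fold higher (4.58, 6.31 and 7.08 CPM). TRPA1 overlaps MSC-AS1 on the other strand. OR2I1P overlaps GABBR1 on the other strand, and the gene UBD at the same place as OR2I1P was listed at 0 in all 30 libraries. In all, 45 genes rose from at most 3 counts in each Control library and 63 fell to at most 3 counts in each TNF library. Other large rises were those of LINC02015, a long non-coding RNA (0.211 ± 0.0871 to 19.6 ± 2 CPM, log2 6.49), and CACNA1I, a T-type calcium channel (0.0867 ± 0.108 to 7.34 ± 0.121 CPM, log2 6.27). In a Control library LINC02015 had at most 6 counts and CACNA1I at most 4, just above the floor, so these folds are imprecise. Other large falls were those of FAIM2, an inhibitor of Fas killing (7.88 ± 0.606 to 0.407 ± 0.251 CPM, log2 -4.20), RAB17 (log2 -3.42) and the water channel AQP5 (log2 -3.35). By kind of gene, 59.1% of 12808 protein-coding genes, 29.1% of 1784 long non-coding genes and 18% of 579 pseudogenes passed the test, and their depth was not matched.

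Genes that moved by more than 1 in the same direction formed 26 runs of at least 3, of which 23 were higher and 3 lower. A run joins neighbours among the protein-coding genes tested, without chromosomes M and Y. Other genes and long distances may lie between its members. Positions are those of GENCODE 29 on GRCh38. The guanylate-binding proteins GBP3, GBP1, GBP2, GBP4 and GBP5 formed one run (chromosome 1, 89006666 to 89272804) with log2 fold changes of 2.24 to 7.08. The chemokines CXCL8, CXCL6, CXCL1, CXCL5 and CXCL3 formed a second (chromosome 4, 73740506 to 74038807) at 2.33 to 5.71. Another run joined HLA-DOB, TAP2, PSMB8, PSMB9 and TAP1 in the MHC (chromosome 6, 32812763 to 32859585) at 1.26 to 2.29, and IFIT2, IFIT3, IFIT1 and IFIT5 formed a run at 1.91 to 4.0 (chromosome 10, 89283694 to 89421001). Reads can be shared between such close relatives and overlapping neighbours, so members of a run are not independent. Among the lower runs, MMP2 stood between IRX5 and LPCAT2 (chromosome 16, 54930862 to 55586670, log2 -2.43 to -1.28), and ST6GALNAC1 beside ST6GALNAC2 and PRCD (chromosome 17, 76527586 to 76643838, log2 -2.84 to -1.17).

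Set directly against IL1b, TNF gave higher values for 3412 genes (21.4% of 15908) and lower values for 3168 (19.9%), 6580 in all (41.4%). The doses differ, 25 and 10 ng/mL, so a difference may belong to the dose or to the cytokine, and these cannot be told apart. The genes of the interferon-stimulated list, IFNB1 included, were higher with TNF in 56 of 56 cases (median difference 1.18). So were MHC class I genes in 21 of 22 (0.84), AP-1, EGR and NR4A genes in 25 of 33 (1.31) and NF-kappaB subunits and inhibitors in 11 of 12 (1.09), with none lower in these 4 lists. Chemokines were divided, 10 higher and 5 lower. Among genes with at least 5 CPM in the higher group, wide gaps in favour of TNF lay in CXCL10 (7.96, 5.32 and 6.63 CPM in IL1b libraries, log2 difference 5.46, adjusted p = 2.88e-12), CXCL11 (log2 4.98) and CD74 (1.62, 1.72 and 0.842 CPM in IL1b, log2 4.6). OR2I1P, at 0, 0.0521 and 0.158 CPM in IL1b libraries, was at or under the floor of 3 counts in each, so no fold is given. NR4A2, a nuclear receptor of the early response, was at 118, 104 and 107 CPM in Control, 228, 310 and 245 CPM in TNF and 11.1, 11.5 and 10.3 CPM in IL1b libraries, so the 2 cytokines lay on opposite sides of Control (log2 difference 4.58, adjusted p = 3.07e-11). ATF3, another early factor, lay at 227 ± 41.9 CPM in Control, 790 ± 157 in TNF and 49.3 CPM in IL1b on average (log2 difference 4.0).

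Other genes were lower with TNF than with IL1b. CSF3, which encodes G-CSF, was at 16.1, 20.3 and 23.1 CPM in TNF and at 198, 195 and 200 CPM in IL1b libraries (log2 difference -3.31, adjusted p = 2.54e-25). CXCL12 was lower in TNF (17.7 to 19.3 CPM) and higher in IL1b (114, 107 and 109 CPM) than in Control (68.7 to 74.8 CPM), and the log2 difference of TNF from IL1b was -2.59. PODN, the matrix protein podocan, and PTCH1, the Hedgehog receptor, differed by -2.21 and -2.13. These genes reach 5 CPM in IL1b libraries, and scarcer genes such as FAIM2 (-2.51) and CD248 (-2.25) also lay lower with TNF. Some of the largest TNF responses differed less: TNFAIP6 was at 41.6 ± 3.23 CPM in TNF and 45.7 CPM in IL1b (log2 difference -0.13, adjusted p = 0.465), and the log2 difference of CXCL6 was -0.78.

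**Figure D5:**
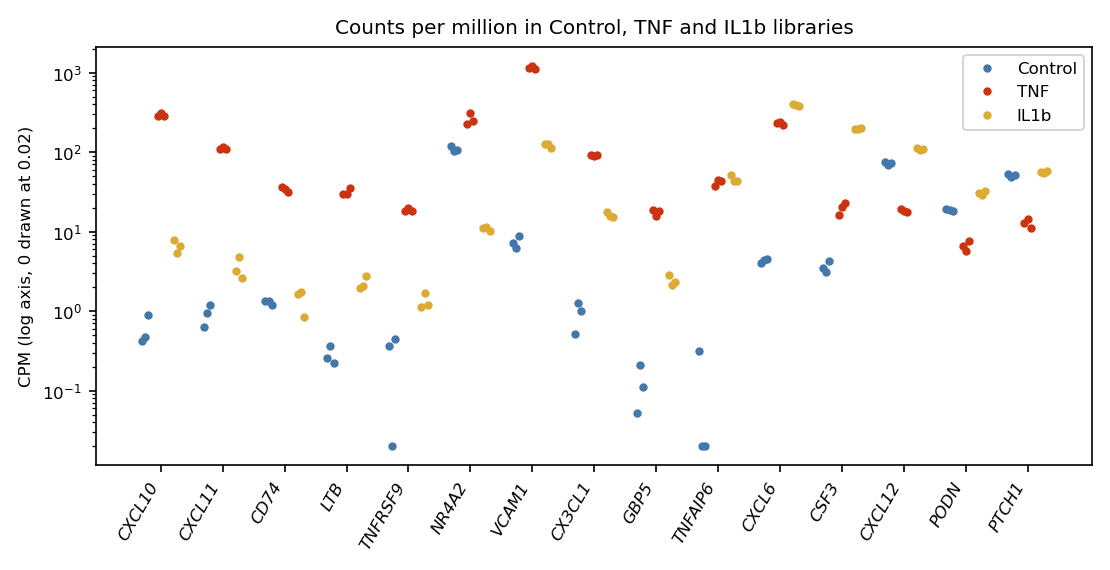
CPM on a log axis (y axis, 0 drawn at 0.02) in the 3 Control (blue), 3 TNF (red) and 3 IL1b (yellow) libraries for 15 genes (x axis). CXCL10, CXCL11 and CD74 are highest in TNF libraries, NR4A2 is higher than Control in TNF and lower in IL1b, and CSF3 is highest in IL1b.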

How the data were processed

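RNA was measured in hCMEC/D3 cells. The authors deposited 1 table of raw counts per Ensembl gene, not normalized. Per the labels' protocols, RNA came from RNeasy columns and libraries from the NEBNext Ultra kit. The submitters' processing notes name STAR, FastQC, DESeq2, R 4.4.1 and the build hg38, with no roles. The counting program, the annotation and the use of strand are not given in the sources used here. Lines without a gene ID (4, with 0.000789% to 0.00164% of the counts of a library) and 2 IDs without counts, TTN and ANK2, were left out, and 3 repeated IDs, identical each time, were kept once.

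Counts were analysed with edgeR 4.0.16 in R 4.3.3: filterByExpr, trimmed mean of M-values factors and the robust quasi-likelihood test, two-sided, in a fit of the 15 direct libraries (Control, TNF, IL1b, C5a and Epinephrine; biological coefficient of variation 0.0553, 10 residual degrees of freedom), with Benjamini-Hochberg adjustment over 15908 genes. On data simulated for TNF against Control (15494 genes) it found 162 of 200 changed genes with 16 false calls and made 0 calls in an unchanged comparison. The simulation changed far fewer genes than were called here, in both directions, and held no shift in library make-up. It therefore cannot test the scaling on which the split of calls depends. Replicate pairs differed by more than sampling noise (chi-square per gene 2.68 to 5.13). The counting floor of 3 counts covers counting error only.

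Genes were named by a rule: the 15 largest rises and falls at 5 CPM or more without overlap, the 10 largest gains and losses of counts, 4 per list, known TNF targets, and the 5 largest gaps to IL1b each way. This gave 163 genes, 69 of which overlap a counted gene on the opposite strand. Only some of these overlaps are named in the text. Genes named for their run, their promoter, their place on a list or their contrast with a named gene (CXCL1, IFNB1, DSP) stand outside it. The 26 lists, the members and the rule were chosen with earlier results of these data known. Alternatives were relative log expression factors, totals, other filters, a fold threshold, DESeq2 1.42.0, a replicate block, other sets of libraries and leaving out each library; scaling by totals for the lists was added after seeing the data. Results for some genes that the rule selects are not reported here. All 30 libraries carry batch number 1 in the labels.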

Additional observations from a re-analysis of the deposited data

How the results depend on the processing

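The count of 8388 genes lay between 7326 (filter at a mean of 50 counts) and 10066 (scaling by totals) under the alternatives that kept the threshold, at 8264 with DESeq2, and between 7655 and 7950 without 1 library. Leaving out 1 library gave 4044 to 4196 higher and 3564 to 3754 lower genes. Scaling by totals gave 2283 higher and 7783 lower genes, and a log2 fold change over 1 left 2037 genes, 1087 higher and 950 lower. Of the main calls, 2283 higher and 4019 lower genes were shared with scaling by totals, and 4325 and 3901 with DESeq2. TNF against IL1b gave 6580 genes, 5852 to 5964 without 1 library and 8545 with totals. Same-numbered TNF and Control libraries did not deviate together (r of -0.0304, -0.0421 and -0.0174), and no library correlated best with its own number. Correlations this weak cannot show whether libraries of the same number were prepared together, and the main fit did not pair them. With a replicate block 8339 genes were called, 4348 higher and 3991 lower.

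Of 2275 values of named genes under alternatives, 2237 kept direction and side of the threshold, 29 lost and 7 gained the call, and 2 reversed: MT-CO1 from 0.11 to -0.17 and MT-ND4 from 0.18 to -0.10, both with totals; the cause was not tested. The 10 genes affected were TNFRSF1A, NOS3, CCN1 and 7 mitochondrial genes. Counts below 3 per library limit what can be said of scarce transcripts.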
